A study of Drosophila melanogaster with 12 samples.

Results

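The genes described here are 8 core genes of the *Drosophila* epidermal growth factor (EGF) receptor pathway: the receptor *Egfr*, the ligands *spi* and *vn*, the ligand antagonist *aos*, the ligand transport factor *S*, the nuclear factors *pnt* and *aop*, and the intracellular inhibitor *sty*. They were chosen by symbol from a table of 14977 genes, and each symbol was found once. The table gives their values in 12 libraries of *Drosophila melanogaster* whole embryos, 1 miCLIP and 1 mRNA-seq library for each of 6 timepoints. T1 covered 0 to 45 min after egg laying and T2 45 to 90 min, T3 ran from 1.5 to 6 h, T4 from 6 to 12 h, T5 from 12 to 18 h and T6 from 18 to 24 h. miCLIP uses an antibody against N6-methyladenosine (m6A), which is fixed to fragments of poly(A) RNA by ultraviolet light and pulled down with them, so that a gene's reads reflect both how abundant its RNA was and how much of it the antibody held. The paper states that each timepoint's RNA was split between the assays. The labels name no treatment and no engineered allele, and each collection pooled many embryos. Canton S is the strain of the growth protocol, whereas the strain entry of the same records reads yw.

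EGF receptor signalling begins with ligands that neighbouring cells release. Spitz (*spi*) is made as a membrane-bound precursor, which Star (*S*) carries out of the endoplasmic reticulum to the Rhomboid proteases that cut it, whereas Vein (*vn*) is secreted without that step. The receptor acts through Ras, Raf and the MAP kinase Rolled, which activates the ETS factor Pointed (*pnt*) and removes the ETS repressor Yan (*aop*) from its targets. Argos (*aos*), a secreted protein that sequesters Spitz, and Sprouty (*sty*), which dampens Ras signalling inside the cell, are both induced by the pathway and restrain it. In the embryo the pathway patterns the ventral ectoderm and shapes the nervous system, the muscles and the tracheae.

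Values are FPKM as deposited, fragments per kilobase of gene times a factor for each library. Genes of different length are thus put on 1 scale within a library. In miCLIP, a level means this value, which reflects antibody capture as well as RNA abundance. A comparison of genes in miCLIP is therefore not one of RNA amounts. The factors did not follow sequencing depth alone. The T4 and T5 mRNA-seq libraries had 25487044 and 24669146 reads on genes, with factors of 0.987 and 1.55 relative to mRNA-seq T3. Fold changes between timepoints therefore depend on these factors as well as on reads. Each assay has 1 library per timepoint, so no value has a replicate, no difference was tested, and every fold change describes these libraries. Reads were recovered from the steps in the FPKM values, and each fold is followed by its 95% interval from these reads (Clopper-Pearson, exact), which covers counting error only. The recovered reads on genes ranged between 4251695 (T2) and 14485044 (T3) in miCLIP and between 23127965 (T2) and 25487044 (T4) in mRNA-seq. A log2 ratio is taken on log2(FPKM + 1), so that it is smaller than the plain log ratio where values are low. Genes entered a count only where both libraries compared had 1 FPKM or more, and over 2-fold means a log2 ratio above 1 or below -1. In whole embryos, fewer cells of a type and less RNA per cell cannot be told apart.

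The stage markers followed the labels in most respects. The summed level of the 3 maternal genes *bcd*, *osk* and *nos* was 799.4 FPKM at T1 and 70.8 FPKM at T3 in miCLIP, and 361.5 FPKM at T1 and 38.7 FPKM at T3 in mRNA-seq. The summed level of the 4 early zygotic genes *eve*, *ftz*, *sna* and *twi* was highest at T3 in both assays, at 259.1 FPKM in miCLIP and 166.9 FPKM in mRNA-seq. These early zygotic genes were already present at T1, where their mRNA-seq levels were between 10.6% (*sna*) and 26.8% (*ftz*) of those at T3. The neuronal genes *elav*, *Syt1* and *brp* summed highest at T5, with 166.7 FPKM in miCLIP and 62.4 FPKM in mRNA-seq, and 2 of 3 listed muscle genes found in the table, *Mlc2* and *Tm2*, at T5 in miCLIP (3314 FPKM) and at T6 in mRNA-seq (4813 FPKM). The early mRNA-seq levels of these 2 muscle genes departed from the labels. They summed to 25.0 FPKM at T1, 5.17 FPKM at T2 and 2.53 FPKM at T3, against 0.724 FPKM in T1 miCLIP. The chorion genes of the ovary were at 0 in all miCLIP libraries and at 0.154 FPKM or less in mRNA-seq. The T6 miCLIP library ranked genes more like the T5 than the T6 mRNA-seq library, with a Spearman correlation across 4802 genes of 0.781 for T5 and 0.637 for T6. T6 ratios are therefore given against both mRNA-seq libraries.

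The 8 genes fell into distinct classes of level. *spi* was the most abundant of them in every mRNA-seq library, while *vn* stayed under 7 FPKM in all 6. Of the other genes, *aop* and *S* were already at 20 FPKM or more in mRNA-seq at T1, whereas *Egfr*, *pnt*, *aos* and *sty* were at or below 4 FPKM in both early mRNA-seq libraries and between 8.89 and 44.8 FPKM in each of the 4 later ones.

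**Figure D1:**
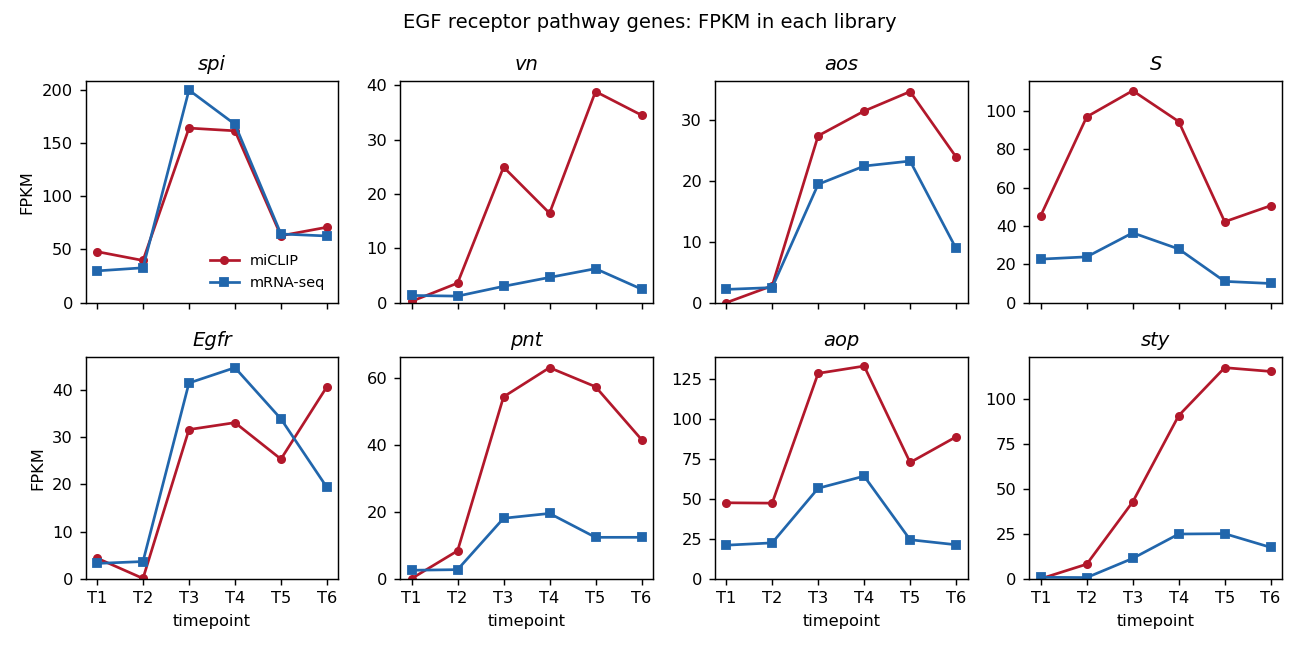
FPKM (vertical axes, each with its own scale starting at 0) of the 8 genes at timepoints T1 to T6 (horizontal axes), 1 point per library, with miCLIP in red circles and mRNA-seq in blue squares. The curves of *spi* lie close together, the miCLIP curves of *vn*, *S*, *pnt*, *aop* and *sty* lie above the mRNA-seq curves at every timepoint from T3 to T6, and that of *Egfr* lies below it at T3, T4 and T5.

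Among the ligands, *spi* had 47.9, 39.7, 163.9, 161.3, 62.9 and 70.8 FPKM in the miCLIP libraries of T1 to T6, against 29.9, 32.8, 199.5, 167.4, 64.5 and 62.6 FPKM in the mRNA-seq libraries. Both assays were highest at T3 and T4, and the ranges of the assays overlapped. The mRNA-seq level of *spi* was 6.09-fold higher at T3 than at T2 (interval 5.82 to 6.37) and 2.60-fold lower at T5 than at T4 (interval 2.48 to 2.72). The miCLIP to mRNA-seq fold of *spi* was 1.61 (1.48 to 1.74) at T1, 1.21 (1.08 to 1.35) at T2, 0.821 (0.794 to 0.849) at T3, 0.963 (0.919 to 1.01) at T4, 0.975 (0.905 to 1.05) at T5 and 1.13 (1.03 to 1.24) at T6. *spi* was thus within 2-fold in every pair of libraries, and the intervals at T4 and T5 included 1.

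*vn* differed from *spi* in level and in the ratio of the assays. Its level was 0.252, 3.61, 25.0, 16.5, 38.9 and 34.5 FPKM in miCLIP at T1 to T6, against 1.34, 1.22, 3.02, 4.66, 6.27 and 2.50 FPKM in mRNA-seq. From T3 on, the lowest miCLIP value of *vn* was above its highest mRNA-seq value. The miCLIP level was 5.31-fold lower at T1 (2.99 to 10.4) and 2.97-fold higher at T2 (2.33 to 3.75), and the miCLIP to mRNA-seq fold was 8.27 at T3 (7.51 to 9.12), 3.54 at T4 (3.18 to 3.93), 6.20 at T5 (5.68 to 6.78) and 13.8 at T6 (11.9 to 16.1). Its T6 value rested on 915 miCLIP reads and 220 mRNA-seq reads, the fewest mRNA-seq reads of any member from T3 on. Set against the T5 mRNA-seq library, the log2 ratio of the T6 miCLIP library was 2.29, against 3.34 within T6.

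The ratio of the ligands to each other therefore depended on the assay. In miCLIP, *vn* was at 0.525%, 9.11%, 15.2%, 10.2%, 61.8% and 48.8% of the level of *spi* at T1 to T6. In mRNA-seq, it was at 4.47%, 3.71%, 1.51%, 2.78%, 9.72% and 3.996% of it. Both assays had their highest share at T5, and the share was lower in miCLIP than in mRNA-seq only at T1, where 12 miCLIP reads of *vn* were counted.

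*aos*, the secreted antagonist of Spitz, was at 0, 2.77, 27.4, 31.4, 34.6 and 23.9 FPKM in miCLIP, against 2.18, 2.48, 19.4, 22.4, 23.2 and 8.89 FPKM in mRNA-seq. It was low at T1 and T2 and high from T3 in both assays, with a mRNA-seq level 7.83-fold higher at T3 than at T2 (6.87 to 8.95). The miCLIP to mRNA-seq fold was 1.12 (0.790 to 1.55) at T2, 1.41 (1.31 to 1.52) at T3, 1.40 (1.28 to 1.53) at T4 and 1.49 (1.37 to 1.62) at T5. At T6 the fold was 2.69 (2.32 to 3.11) within the timepoint, with a log2 ratio of 1.33, whereas the log2 ratio of T6 miCLIP over T5 mRNA-seq was 0.04. The mRNA-seq level of *aos* was 2.61-fold lower at T6 than at T5 (2.34 to 2.92), and its miCLIP level 1.45-fold lower (1.28 to 1.65). *aos* overlaps *CG33158* in a later annotation, and that gene had 4829 reads over the 12 libraries, against 9311 for *aos*. Which of these reads come from which gene was not tested.

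*S*, the carrier of the Spitz precursor, had the most even mRNA-seq course of the 8 genes over the first 4 timepoints. It was at 45.4, 96.9, 110.6, 94.5, 42.2 and 50.6 FPKM in miCLIP, against 22.7, 23.9, 36.4, 28.0, 11.1 and 10.03 FPKM in mRNA-seq. The lowest miCLIP value was above the highest mRNA-seq value, so the assays did not overlap. The miCLIP to mRNA-seq fold was 2.00 (1.90 to 2.10) at T1, 4.05 (3.86 to 4.25) at T2, 3.03 (2.94 to 3.13) at T3, 3.37 (3.23 to 3.52) at T4, 3.79 (3.53 to 4.08) at T5 and 5.05 (4.62 to 5.51) at T6. The T1 log2 ratio of 0.97 was just under the 2-fold threshold. *S* was the only member in which the T1 mRNA-seq level exceeded 60% of that at T3 (62.4%), and its mRNA-seq level was 2.52-fold lower at T5 than at T4 (2.36 to 2.69).

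*Egfr*, which encodes the only EGF receptor of the fly, was at 4.38, 0.0745, 31.6, 33.1, 25.4 and 40.7 FPKM in miCLIP, against 3.26, 3.66, 41.5, 44.8, 33.9 and 19.4 FPKM in mRNA-seq. Its mRNA-seq level was 11.4-fold higher at T3 than at T2 (10.5 to 12.3), the largest such fold among the 7 members counted there. The miCLIP value was below the mRNA-seq value at T3, T4 and T5, by 1.31-fold (1.25 to 1.37), 1.35-fold (1.27 to 1.44) and 1.34-fold (1.25 to 1.43). These folds did not reach 2, and their intervals overlap one another. At T6 the miCLIP value was 2.10-fold higher (1.94 to 2.28), with a log2 ratio of 1.03, against 0.26 when T5 mRNA-seq was used. At T1 it was 1.35-fold higher (1.14 to 1.58). At T2, 2 miCLIP reads of *Egfr* were counted, against 661 mRNA-seq reads, a 49.1-fold lower miCLIP level (13.5 to 406). Of 5 genes that overlap *Egfr* in the later annotation, 4 are in the table, with at most 571 reads each over the 12 libraries, against 26051 for *Egfr*.

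The nuclear factors *pnt* and *aop* were both higher in miCLIP from T3 on. *pnt* was at 0.0630, 8.39, 54.5, 63.2, 57.5 and 41.7 FPKM in miCLIP, against 2.55, 2.74, 18.1, 19.6, 12.4 and 12.4 FPKM in mRNA-seq. Its miCLIP to mRNA-seq fold was 3.06 (2.61 to 3.57) at T2, 3.01 (2.87 to 3.15) at T3, 3.23 (3.06 to 3.41) at T4, 4.63 (4.34 to 4.95) at T5 and 3.36 (3.09 to 3.65) at T6. At T1 the direction was the opposite, with 3 miCLIP reads and 544 mRNA-seq reads, a 40.6-fold lower miCLIP level (13.8 to 197). In mRNA-seq, *pnt* was 6.61-fold higher at T3 than at T2 (6.02 to 7.26).

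*aop* was at 47.5, 47.3, 128.4, 133.0, 72.7 and 88.7 FPKM in miCLIP, against 21.0, 22.5, 56.6, 64.2, 24.4 and 21.3 FPKM in mRNA-seq. Only 3 members were at 1 FPKM or more in all libraries, and of these *aop* alone was over 2-fold higher in miCLIP at all 6 timepoints. This pattern was shared by 58 of the 4802 genes at 1 FPKM or more in all libraries (1.21%). None of the 3 members was over 2-fold lower at all 6 (0.0625%). The fold of *aop* was 2.26 (2.15 to 2.38) at T1, 2.11 (1.98 to 2.24) at T2, 2.27 (2.21 to 2.33) at T3, 2.07 (2.01 to 2.14) at T4, 2.98 (2.83 to 3.13) at T5 and 4.17 (3.93 to 4.43) at T6. The T1, T2 and T4 folds were close to 2 and did not stay above it when library sums were made equal, with log2 ratios of 0.61, 0.67 and 0.73. *CG15382*, which overlaps *aop* in the later annotation, had 8267 reads over the 12 libraries, against 61976 for *aop*.

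Set against each other, *pnt* was at 0.133%, 17.7%, 42.4%, 47.6%, 79.1% and 47.0% of the level of *aop* in miCLIP at T1 to T6, against 12.2%, 12.2%, 32.0%, 30.5%, 50.9% and 58.4% in mRNA-seq. The share in mRNA-seq was thus lowest at the early timepoints and highest at T6, and that in miCLIP was highest at T5.

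**Figure D2:**
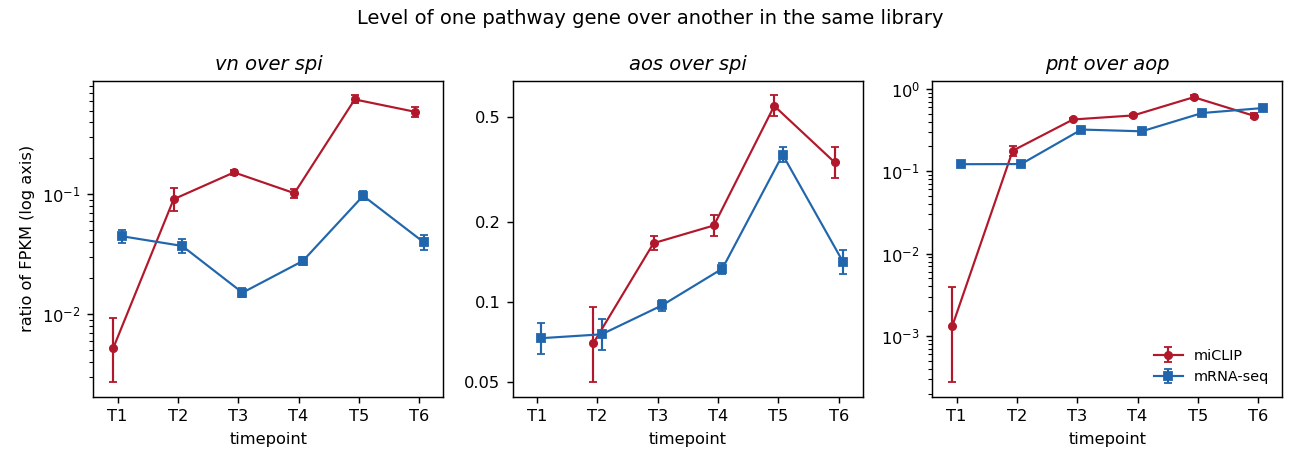
Level of *vn* over *spi*, *aos* over *spi* and *pnt* over *aop* in the same library (vertical axes, ratio of FPKM, log scale) at T1 to T6 (horizontal axes), with miCLIP in red circles, mRNA-seq in blue squares and bars for the exact 95% counting interval. The T1 miCLIP ratio of *aos* over *spi* is 0 and is not drawn. *vn* over *spi* is higher in miCLIP at T2 to T6, and *pnt* over *aop* crosses, at 0.470 in miCLIP and 0.584 in mRNA-seq at T6.

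*sty*, the Ras pathway inhibitor, had the largest fold between its highest and lowest mRNA-seq level among the 8 genes. It was at 0.0405, 8.12, 42.7, 90.6, 117.3 and 115.2 FPKM in miCLIP, against 0.829, 0.678, 11.3, 24.9, 25.1 and 17.5 FPKM in mRNA-seq. From T3 on, its lowest miCLIP value was above its highest mRNA-seq value. The miCLIP to mRNA-seq fold was 3.77 (3.57 to 3.98) at T3, 3.65 (3.49 to 3.81) at T4, 4.68 (4.47 to 4.90) at T5 and 6.60 (6.21 to 7.01) at T6. At T1, 2 miCLIP and 183 mRNA-seq reads gave a 20.5-fold lower miCLIP level (5.58 to 170). At T2, 242 miCLIP and 136 mRNA-seq reads gave a fold of 12.0 (9.67 to 14.9), but the mRNA-seq value was under 1 FPKM and is not in the counts. In mRNA-seq, *sty* was 16.7-fold higher at T3 than at T2 (14.0 to 20.03) and 2.19-fold higher at T4 than at T3 (2.08 to 2.32), and it was the only member over 2-fold higher between those timepoints.

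From T3 on, the inhibitor was above the receptor in miCLIP and below it in mRNA-seq. *sty* was 1.35-fold (1.28 to 1.42), 2.74-fold (2.56 to 2.93), 4.62-fold (4.33 to 4.94) and 2.83-fold (2.63 to 3.04) the level of *Egfr* in miCLIP at T3 to T6. In mRNA-seq it was 0.273, 0.555, 0.739 and 0.901 times the level of *Egfr*, and the last interval (0.840 to 0.966) stayed below 1.

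The order of the 8 levels thus differed between the assays. At T3, the miCLIP order was *spi*, *aop*, *S*, *pnt*, *sty*, *Egfr*, *aos*, *vn*, and the mRNA-seq order was *spi*, *aop*, *Egfr*, *S*, *aos*, *pnt*, *sty*, *vn*. At T5, the miCLIP order was *sty*, *aop*, *spi*, *pnt*, *S*, *vn*, *aos*, *Egfr*, with each neighbouring pair apart by more than counting error, and the mRNA-seq order was *spi*, *Egfr*, *sty*, *aop*, *aos*, *pnt*, *S*, *vn*. In mRNA-seq at T5, *sty* and *aop* (ratio 1.03, 0.974 to 1.08) and *aop* and *aos* (ratio 1.05, 0.984 to 1.12) did not differ beyond counting error. In miCLIP, the same held for *spi* and *aop*, *aop* and *S*, and *pnt* and *sty* at T1, for *pnt* and *sty* and *vn* and *aos* at T2, for *S* and *sty* and *Egfr* and *aos* at T4, and for *pnt* and *Egfr* at T6. In mRNA-seq it also held for *pnt* and *aos* at T2. For *sty* and *aos* in T1 miCLIP, with 2 reads and 0, no interval was taken, so this pair was not shown to differ.

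Counted over the pathway, 5 of 8 members had a miCLIP level over 2-fold above that of mRNA-seq at T3, T4 and T5, the same genes each time (*vn*, *S*, *pnt*, *aop* and *sty*), and none was over 2-fold lower. Among all genes, 9.96% were over 2-fold higher and 6.63% lower at T3, 8.14% and 7.26% at T4, and 14.3% and 16.5% at T5. At T6, 7 of 8 members were over 2-fold higher, all but *spi*, and none lower, with 20.6% of all genes higher and 27.3% lower. Set against T5 mRNA-seq, the T6 count was 5, since *aos* and *Egfr* were then within 2-fold (14.2% of all genes higher and 19.5% lower), and the log2 ratios of the other members were 2.29 for *vn*, 2.09 for *S*, 1.67 for *pnt*, 1.82 for *aop*, 2.16 for *sty* and 0.13 for *spi*. At T2, 4 of 6 members counted were higher (*vn*, *S*, *pnt* and *aop*; 11.8% of all genes), and none lower (10.8%). With the library sums made equal, 2 of these 6 were. At T1, 1 of 4 (*aop*) was higher (24.8% of all genes) and none lower (16.3%). The median log2 ratio of the members was 1.35, 1.33, 1.69 and 1.84 at T3 to T6, beside -0.08, -0.07, -0.07 and -0.16 over all genes counted.

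**Figure D3:**
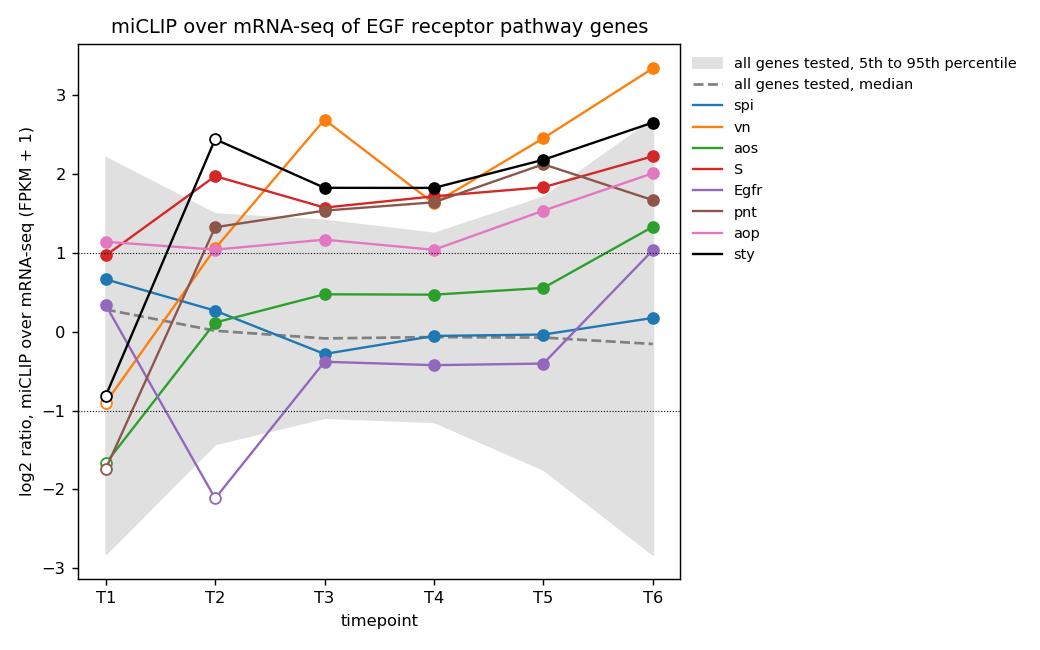
Log2 ratio of miCLIP over mRNA-seq (vertical axis, FPKM + 1) at T1 to T6 (horizontal axis) for the 8 genes, with filled points where both libraries were at 1 FPKM or more and open points elsewhere, the 5th to 95th percentile of all genes counted in grey, their median dashed and the 2-fold thresholds dotted. From T3 to T6, *vn*, *S*, *pnt*, *aop* and *sty* lie above the upper threshold and *spi* lies near the median of all genes. *Egfr* and *aos* lie above the threshold only at T6.

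Over the 4 later timepoints together, *vn*, *S*, *pnt*, *aop* and *sty* were over 2-fold higher in miCLIP in each pair of libraries. This held for 203 of the 6346 genes at 1 FPKM or more in these 8 libraries (3.2%), and for 149 of them (2.35%) with the library sums made equal, where *aop* was no longer among them. Without a fold threshold, 6 of 8 members (these and *aos*) were higher in miCLIP in all 4 pairs (20.3% of all genes) and none was lower in all 4 (24.6%). With T2 added, 4 of the 6 members counted, all but *spi* and *aos*, were over 2-fold higher throughout (1.73% of 5665 genes) and none lower (0.159%). Of these 4, *vn* and *aop* were under 2-fold at T2 with the library sums made equal (log2 ratios 0.98 and 0.67). By the median log2 ratio over T3 to T6, *vn* (2.57) stood at the 99.1st percentile of the 6346 genes and *sty* (2.00) at the 98.3rd. *S* (1.78) was at the 97.7th, *pnt* (1.66) at the 97.2nd and *aop* (1.35) at the 95.3rd. *aos* (0.52) stood at the 80.5th, *spi* (-0.04) at the 54.9th and *Egfr* (-0.39) at the 32.7th. On the log2(FPKM + 1) scale, *vn* and *sty* were over 3-fold higher in all 4 pairs (1.23% of the 6346 genes). *S* (1.58) and *pnt* (1.54) were just under that threshold at T3, where their plain folds were 3.03 and 3.01.

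These 5 genes also shared a feature that the choice of genes did not use. The gene lengths behind their FPKM, recovered from the values, were 5239 bases for *vn*, 5080 for *S*, 5229 for *pnt*, 5444 for *aop* and 5420 for *sty*, against 2822 for *aos* and 1826 for *spi*. *Egfr*, at 4886 bases, was in the same length range without a like ratio. Of all genes with a length from 4000 to under 6000 bases, 46 of 751 (6.13%) were over 2-fold higher in miCLIP in all of T3 to T6, against 2.21% of those from 2000 to under 4000 bases and 2.28% of shorter ones, and 8.79% of those from 6000 bases up. The part of length in the ratios of the 5 genes was not tested.

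In the mRNA-seq levels as deposited, the step with the most members past 2-fold lay between T2 and T3. No member of 7 counted was over 2-fold higher or lower at T2 than at T1 (0.326% of all genes higher and 3.89% lower). At T3 compared with T2, 5 of 7 were over 2-fold higher, *spi*, *aos*, *Egfr*, *pnt* and *aop* (13.4% of all genes). None was lower (13.4%). *sty*, 16.7-fold higher, was not counted because its T2 level was under 1 FPKM. Of 21 other pathway genes counted at this step, 2 were higher and 1 lower. *aop*, 2.52-fold higher (2.43 to 2.61), was under 2-fold with the library sums made equal (log2 ratio 0.94). *S* was 1.52-fold higher (1.47 to 1.58), and *vn*, at 3.02 FPKM at T3 and 1.22 FPKM at T2, was 2.48-fold higher (2.12 to 2.91) but below the threshold on the log2(FPKM + 1) scale. At T4 compared with T3, 1 of 8 members (*sty*) was over 2-fold higher (15.3% of all genes). At T5 compared with T4, 3 of 8 were over 2-fold lower, *spi*, *S* and *aop* (10.1% of all genes), and at T6 compared with T5, *vn* and *aos* were (8.92%), with none over 2-fold higher (15.1%). With the library sums made equal, *Egfr* and *pnt* were also over 2-fold lower at T5 than at T4 (log2 ratios -1.16 and -1.38). That scaling moved the median log2 ratio of all genes at this step from 0.10 to -0.64. The share of all genes past 2-fold after scaling is not given here. Over the 5 steps together, the 6 member values over 2-fold higher and 5 lower became 5 higher and 8 lower.

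In miCLIP, the members differed between both T1 and T2 and T2 and T3. At T2 compared with T1, 3 members were counted, and *S* was over 2-fold higher (2.13-fold, 2.02 to 2.26; 17.3% of all genes) and none lower (24.1%). The others were under 1 FPKM in 1 of these libraries. Of them, *sty* had 242 reads at T2 and 2 at T1 (200-fold higher, 54.9 to 1665), *pnt* 241 and 3 (133-fold, 45.0 to 650), *vn* 104 and 12 (14.4-fold, 7.88 to 28.7) and *aos* 43 and 0. *Egfr* had 2 at T2 and 195 at T1, a 58.8-fold lower level (16.1 to 489). At T3 compared with T2, 6 of the 7 members counted were over 2-fold higher, all but *S* (18.8% of all genes). The folds were 4.13 for *spi* (3.73 to 4.59), 6.91 for *vn* (5.68 to 8.50), 9.87 for *aos* (7.29 to 13.7), 6.50 for *pnt* (5.71 to 7.43), 2.72 for *aop* (2.57 to 2.87) and 5.26 for *sty* (4.62 to 6.01). At T4 compared with T3, only *sty* was over 2-fold higher (2.12-fold, 2.03 to 2.22; 15.8% of all genes). At T5 compared with T4, *vn* was 2.36-fold higher (2.15 to 2.59; 26.7% of all genes), while *spi* and *S* were 2.57-fold (2.38 to 2.77) and 2.24-fold (2.12 to 2.37) lower (16.3% of all genes). No member was past 2-fold at T6 compared with T5, where 13.1% of all genes were higher and 14.9% lower. *Egfr* is not in the T3 to T2 count because of its 2 miCLIP reads at T2.

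Read numbers set limits at the early timepoints. At T1, *aos* had 0 miCLIP reads, *sty* 2, *pnt* 3 and *vn* 12, against 251, 183, 544 and 285 mRNA-seq reads. For *aos*, with the count of 0 in that library taken as up to 3 reads, the miCLIP level was at least 18.7-fold lower, and the exact interval from both counts began at 15.1-fold. Of the 7035 genes at 1 FPKM or more in T1 mRNA-seq, 14.7% had 3 or fewer miCLIP reads, and among those from 1 to under 5 FPKM, where *vn*, *aos*, *Egfr* and *pnt* lay, 590 of 1025 (57.6%) had. At T2, where *Egfr* had 2 reads, the share was 6.24% of 6812 genes and, in the band from 1 to under 5 FPKM that held *Egfr*, 267 of 908 (29.4%). The early zygotic genes had likewise few T1 miCLIP reads, with 0 for *ftz*, 1 for *twi* and 7 for *sna*, but 343 for *eve*. How far early detection sets the ratios of the low members was not tested.

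The other genes of the pathway were described with a list of 24 genes, namely ligands and their proteases, transducers between the receptor and the MAP kinase, and inhibitors. In miCLIP compared with mRNA-seq, 4 of 21 counted were over 2-fold higher at T3 (9.96% of all genes), 5 of 23 at T4 (8.14%), 7 of 22 at T5 (14.3%) and 12 of 22 at T6 (20.6%), and none was lower. Set against T5 mRNA-seq, 9 of 23 were higher at T6 (14.2% of all genes) and none lower (19.5%). At T1, 4 of 19 were higher (24.8% of all genes) and 3 lower (16.3%), and at T2, 5 of 22 were higher (11.8%) and 2 lower (10.8%). The median log2 ratio of this list was 0.41, 0.33, 0.64 and 1.08 at T3 to T6 (0.76 for T6 over T5 mRNA-seq), between that of the 8 members and that of all genes.

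In all of T3 to T6, 3 of 21 of these genes were over 2-fold higher (3.2% of the 6346 genes counted). They were 1 of 11 transducers, *drk*, the adaptor that links the receptor to the Ras activator Sos, and 2 of 6 inhibitors, *Mkp3*, a phosphatase of the MAP kinase, and *edl*, an antagonist of ETS factors. None of the 4 ligand and protease genes was, since *rho*, the protease that cuts Spitz, had a log2 ratio of 0.94 at T3 and 1.15, 1.43 and 2.18 at T4 to T6 (1.07 for T6 over T5 mRNA-seq). The median log2 ratio over T3 to T6 was highest for *edl* (2.18), *Mkp3* (2.03) and *drk* (1.44), and lowest for the adaptor *dos* (-0.20), the MAP kinase gene *rl* (-0.13) and *rho-4* (-0.13). *edl* was at 245.9, 281.4, 155.4 and 166.8 FPKM in miCLIP at T3 to T6, against 53.0, 61.5, 40.9 and 8.43 FPKM in mRNA-seq, and the assays did not overlap. The T6 log2 ratio of *edl* was 4.15 within the timepoint and 2.00 over T5 mRNA-seq, and those of *Mkp3* and *drk* over T5 mRNA-seq were 1.81 and 1.09.

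**Figure D4:**
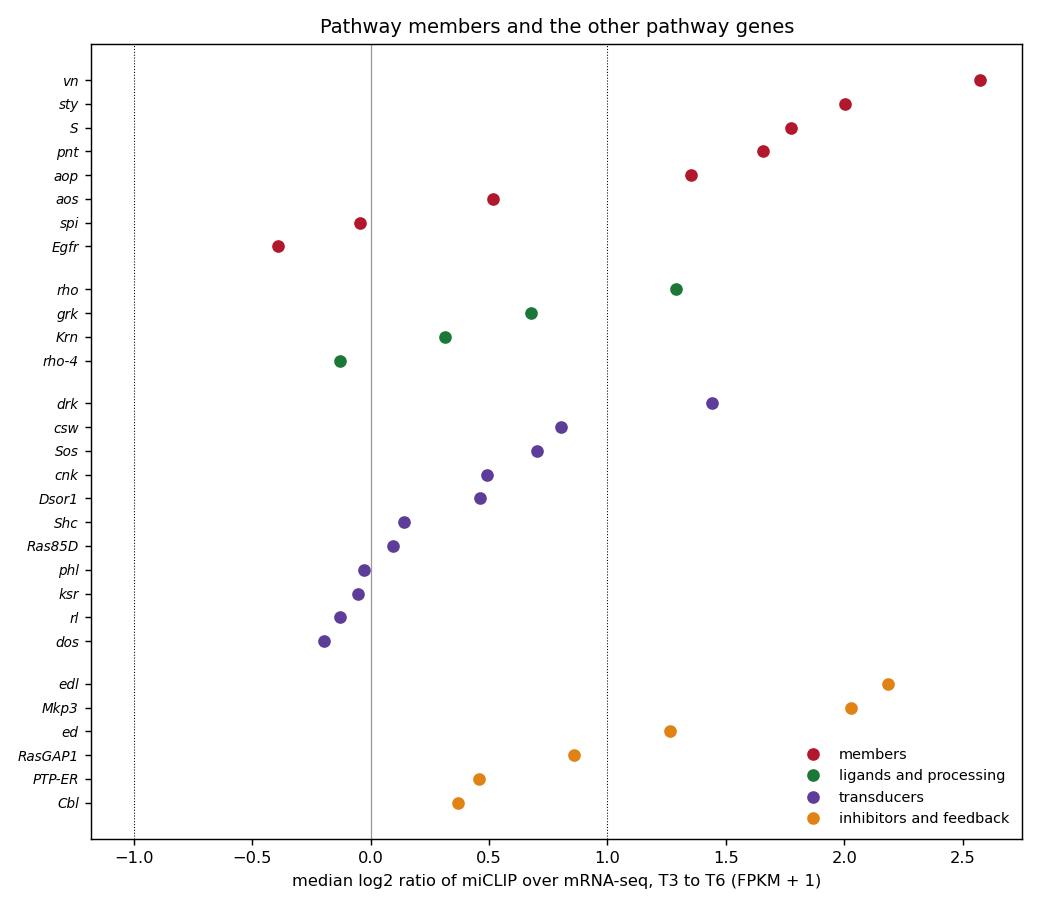
Log2 ratio of the assays, miCLIP over mRNA-seq, as the median of T3 to T6 (horizontal axis, FPKM + 1) for the 8 members and for the 21 other pathway genes at 1 FPKM or more in all 8 libraries (rows, grouped by role). Dotted lines mark 2-fold. *vn* is highest among the members at 2.57 and *edl* among the other genes at 2.18, and 8 of the 11 transducers lie between -0.20 (*dos*) and 0.49 (*cnk*).

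In mRNA-seq, 2 of 21 of the other genes were over 2-fold higher at T3 than at T2, *edl* and *rho* (13.4% of all genes), and 1, *csw*, was lower (13.4%). The log2 ratio of T3 over T2 was 3.06 for *edl*, 2.96 for *rho* and 0.93 for *Sos*, and it was lowest for *stet*, a Rhomboid protease of the germ line (-3.24), the phosphatase gene *csw* (-1.55) and the phosphatase gene *PTP-ER* (-0.77). *rho* was at 20.1 FPKM at T3 and 1.71 FPKM at T2, and *stet* at 0.818 FPKM at T3 and 16.2 FPKM at T2. *stet* is not in the count because its T3 level was under 1 FPKM.

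Over all 12 libraries, the courses of some members were alike. With log2(FPKM + 1) centred within each assay, the Pearson correlation was 0.973 between *aos* and *pnt*, 0.965 between *aos* and *sty*, 0.955 between *pnt* and *sty* and 0.937 between *aop* and *spi*, but -0.02 between *S* and *vn* and -0.08 between *S* and *sty*. Among 8703 genes at 10 FPKM or more in an mRNA-seq library, the genes most like each member were *NetA* (0.995) and *mid* (0.991) for *aos*, *Abd-B* and *tna* (both 0.994) for *sty*, *ImpL2* (0.991) and *disco* (0.986) for *pnt*, and *CG6700* (0.986) and *beat-IIIc* (0.971) for *vn*. For *spi* they were *Ppa* (0.983) and *CG7564* (0.973), for *aop* *Lam* (0.978) and *Traf4* (0.977), for *S* *su(Hw)* (0.971) and *D1* (0.968), and for *Egfr* *srp* (0.985). These correlations are descriptions over libraries of 6 timepoints that share their RNA between assays, and the large step between T2 and T3 is part of each.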

How the data were processed

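miCLIP and mRNA-seq libraries of 6 embryo timepoints, 12 in all, were assigned to assay and timepoint by their titles. The number of value columns that matched no library was 0. The paper's methods state that the authors used Flexbar for adaptors and pyCRAC for demultiplexing and PCR duplicates, aligned both assays to genome release r5.45 with Subread, and obtained gene counts with featureCounts, which DESeq turned into normalized values. The submitters' processing notes name Subread, featureCounts, DESeq and Novoalign without versions. The deposited values are FPKM of 14977 genes. Library sums of FPKM differ, and the strand setting of the counting is not given in the sources used here, so that reads of overlapping genes cannot be told apart.

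Reads were recovered from the FPKM steps for 13982 genes, and 995 genes had no read. All 96 values of the 8 members lay within 0.01 of a whole read. Recovered gene lengths were compared with exonic lengths of the RefSeq annotation of BDGP6.54 for 9584 genes (median ratio 0.999, 89.6% within 20%). For *Egfr* (4886 against 6947 bases) and *pnt* (5229 against 6119) they were shorter than in that later annotation. On simulated T4 data with 14977 genes, reads were exact in 99.9% of 11001 genes with reads in at least 6 libraries. Of the genes changed 4-fold, 100 of 100 raised and 97 of 100 lowered were called. False calls were looked for only among unchanged genes whose simulated read number was set to 100 or more, and 0 of these 6011 were called. Only counting error was simulated, without other variation between libraries. At 100 or more reads such error hardly reaches 2-fold, so the 0 calls do not measure false calls in the data. The rate of false calls among genes with fewer reads was not tested.

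Log2 ratios used a pseudocount of 1 and a filter of 1 FPKM in each library, with a 2-fold threshold. The alternatives were a pseudocount of 0.1 or none, library sums scaled to 1000000, centring on the median, no filter, a mean FPKM of at least 10, folds of 1.5 and 3, and, chosen after seeing the data, T5 mRNA-seq set against T6 miCLIP. The members, the gene lists and the rule for named genes (all 8 members, the other pathway genes with the 3 highest and 3 lowest ratios and the 3 largest rises and falls, and the 2 most similar genes per member) were chosen with earlier results of these data known. For *Egfr*, 1 of its 2 most similar genes is not reported here. Other genes are named where they make up a count or overlap a member, and *cnk* was chosen after its value was seen. Of 25 pathway names listed, 2 denote the same gene, which left 24 genes. Python 3.11.15, numpy 2.4.6, pandas 2.3.3, scipy 1.17.1 and matplotlib 3.10.9 were used. Sequences and genome coordinates are not reported here.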

Additional observations from a re-analysis of the deposited data

Results flagged for a closer look

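In 3 members the ratio of miCLIP to mRNA-seq had opposite directions, each past 2-fold, at different timepoints. The log2 ratio of *aos* was lowest at T1 (-1.67, with 0 miCLIP reads) and highest at T6 (1.33). That of *Egfr* was lowest at T2 (-2.12, with 2 miCLIP reads) and highest at T6 (1.03). That of *pnt* was lowest at T1 (-1.74, with 3 miCLIP reads) and highest at T5 (2.13). Each timepoint has 1 library per assay, so these differences were not tested. Of the 6365 genes at 1 FPKM or more in all mRNA-seq libraries, 1182 (18.6%) had such opposite ratios, against 3 of the 7 members among them. With T5 mRNA-seq in place of T6, the upper values of *aos* and *Egfr* were 0.04 and 0.26.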

How the results depend on the processing

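No paired analysis was possible because each assay has 1 library per timepoint and the labels give no replicate numbers, and for the same reason no replicate could be left out. No value changed to the opposite direction past its threshold under any alternative. Of the counts of members past 2-fold recomputed under the alternatives, 178 stayed within 1.5 times the main count and 16 did not. Many of the 178 were counts of 0 that stayed at 0, mostly of members over 2-fold lower. In miCLIP compared with mRNA-seq at T1, the 1 member higher became 0 with scaled library sums, 0 with centring on the median, 0 at 3-fold and 3 at 1.5-fold, and without the filter on low values 2 members (*aos* and *pnt*) were lower. At T2, the 4 members higher became 2 with scaled sums, 2 with a mean FPKM of at least 10 and 1 at 3-fold, and 1 (*Egfr*) was lower without the filter. At 3-fold on the log2(FPKM + 1) scale, 2 members were higher at T3 and 2 in all of T3 to T6 (1.23% of all genes), in place of 5. *S* and *pnt* were just under the threshold at T3. In mRNA-seq, the 1 member higher at T4 than at T3 became 0 at 3-fold. Of those lower at T5 than at T4, 3 became 5 with scaled sums (*Egfr* and *pnt* added) and 0 at 3-fold, and of those lower at T6 than at T5, 2 became 1 with a mean FPKM of at least 10 and 0 at 3-fold. Scaling moved the median log2 ratio of all genes by more than 0.1 in miCLIP over mRNA-seq at T1 (-0.55), T2 (-0.39), T3 (-0.12) and T4 (-0.31), and in mRNA-seq at T2 over T1 (-0.13), T3 over T2 (-0.38), T5 over T4 (-0.74) and T6 over T5 (-0.40). Among the miCLIP over mRNA-seq ratios it turned the sign of 3 that were within 2-fold: the log2 ratio of *Egfr* at T1 was -0.12 in place of 0.34, that of *spi* at T2 was -0.12 in place of 0.27 and that of *aos* at T2 was -0.20 in place of 0.12. Single log2 values were classed as close to the main value in 214 cases and as moved from it in 106. The 106 include 12 values without a pseudocount, which are plain folds and lie inside their own counting intervals. The classes therefore do not say which values left their counting interval. Counts of 0 to 12 reads limit the T1 miCLIP values of *aos*, *sty*, *pnt* and *vn*, and a count of 2 the T2 value of *Egfr*.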
